A study of Rattus norvegicus with 22 samples.

Results

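The insulin-like growth factor axis was followed in rat engineered heart tissue through 10 genes: the ligands Igf1 and Igf2, the receptors Igf1r and Igf2r, and the binding proteins Igfbp2, Igfbp3, Igfbp4, Igfbp5, Igfbp6 and Igfbp7. The genes were chosen by name, from the probes that carry those names on the array. No measured value entered that rule, but earlier results of these data were known when the genes were chosen. All 10 were found among 26438 gene names, on 13 of the 30367 probes of the array. Igf1, Igfbp2 and Igfbp5 have 2 probes each and the other genes 1 each.

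Engineered cardiac tissues are gels seeded with heart cells and held under tension in culture, here for 7 days. The cells were ventricular and came from embryos of Sprague Dawley rats at gestational day 14.5. There were 4 groups: stretch_BIRB796, which received cyclic stretch of 5% elongation at 0.5 Hz together with 10 µM BIRB796 (4 arrays); BIRB796, which received the compound without stretch (4 arrays); stretch, which was stretched without the compound (7 arrays); and control, which received neither (7 arrays). Each treatment began on culture day 5 and lasted 48 h. BIRB796 inhibits the p38 mitogen-activated protein kinase and is given as such in the treatment protocol, although the series title names tyrosine kinase. The medium of every group contained fetal bovine serum and chicken embryo extract. Replicates are labelled biological without a link to a litter or culture, and p-values cover only the spread among these arrays. All 10 cardiomyocyte markers checked were well above background on all 22 arrays, with a mean level of 3.52 to 5.48.

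Igf1 and Igf2 are small secreted proteins that act mainly through the tyrosine kinase receptor Igf1r, which feeds the PI3K-Akt and MAPK pathways and promotes growth and survival of muscle cells, the heart's included. Igf2r, the mannose 6-phosphate receptor, takes Igf2 up for breakdown and carries no kinase. The binding proteins hold the ligands outside the cell, prolong their life and limit or aid their access to Igf1r. Proteases such as the pregnancy-associated plasma protein A and Htra1 cut binding proteins and free the ligand. In the fetal mouse heart Igf2 is a product of the epicardium and of vessel walls and acts on the growth of the ventricular wall.

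Igfbp2 and Igfbp5 lie next to each other on rat chromosome 9, with no RefSeq gene between them, and are read towards each other. On the rn4 build used by the array their nearest probes lie 6.12 kb apart. Of the 10 genes, Igfbp2 had the widest spread over the arrays scanned together with the BIRB796 groups, controls included. The probe shown is from Igfbp2 (chr9:71993843-71993902, plus strand, rn4). It reads without a stop for 19 codons and ends in the stop codon in capitals.
Igfbp2 probe: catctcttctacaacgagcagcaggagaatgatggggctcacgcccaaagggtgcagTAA

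The 250 bases before the annotated start of Igfbp2, Igfbp3 and Igfbp5 are shown. These 3 genes had the largest spread of the 10 over those same arrays, controls included. They are from RefSeq on the GRCr8 build, where Igfbp2 is on the plus strand (chr9:81864561-81864810), Igfbp3 on the minus strand (chr14:86277945-86278194) and Igfbp5 on the minus strand (chr9:81914188-81914437). Capitals mark matches on either strand to 3 motifs: the TATA box as TATANA, the GC box as GGGCGG and the AP-1 motif as TGACTCA.
Igfbp2: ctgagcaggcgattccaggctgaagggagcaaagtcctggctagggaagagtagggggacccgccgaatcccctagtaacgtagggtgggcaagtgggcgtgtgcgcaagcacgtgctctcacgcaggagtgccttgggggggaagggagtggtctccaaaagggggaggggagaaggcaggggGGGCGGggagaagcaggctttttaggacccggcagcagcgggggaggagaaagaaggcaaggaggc
Igfbp3: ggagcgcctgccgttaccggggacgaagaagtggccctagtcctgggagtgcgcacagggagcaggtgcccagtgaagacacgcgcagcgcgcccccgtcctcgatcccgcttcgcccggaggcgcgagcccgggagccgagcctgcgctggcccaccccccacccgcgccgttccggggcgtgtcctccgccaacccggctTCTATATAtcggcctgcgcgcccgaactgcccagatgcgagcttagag
Igfbp5: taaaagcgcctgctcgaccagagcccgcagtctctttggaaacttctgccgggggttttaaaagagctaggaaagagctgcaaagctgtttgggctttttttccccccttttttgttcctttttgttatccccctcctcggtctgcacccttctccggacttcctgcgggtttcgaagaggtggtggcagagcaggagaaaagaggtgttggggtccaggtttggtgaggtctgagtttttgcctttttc
Igfbp2 held 1 GC box, from base -66 to -61 before the start, a motif found in 30.5% of the 33469 windows of this length in the table. Igfbp3 held TATANA on the strand of the gene from -46 to -41, overlapping 2 matches on the other strand, and 24.2% of windows held that motif. The Igfbp5 window held none of the 3 motifs. The AP-1 motif, present in 4.05% of windows, was in none of the windows of the 10 genes. GC content was 64% in the Igfbp2 window, 71.6% in that of Igfbp3 and 51.6% in that of Igfbp5. These matches describe letters and say nothing of what binds there.

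The arrays were scanned in 3 sessions, which set what can be compared. Stretch replicates 1 to 3 and control replicates 1 to 3 formed session 1, and only stretch replicates 4 to 7 were in session 2. Session 3 comprised both BIRB796 groups in full and control replicates 4 to 7. Stretch was therefore set against control within session 1, and both BIRB796 groups against control within session 3. In session 3, BIRB796 replicates 2 to 4 were on slide 9, which held no control. Control replicates 5 and 6 were on slide 7, which held no treated array. Only slide 6 held arrays of both BIRB796 and control, so slide and BIRB796 are largely confounded in that comparison. A level below is the log2 signal of a probe minus the 75th percentile of its array. Levels of different genes are not set against each other, since probes differ in brightness. Control levels differed between sessions 1 and 3 by a median of 0.57 over all probes, in either direction. Among the 10 genes the control mean of session 1 minus that of session 3 ran from -1.50 for Igfbp5 to 1.22 for Igfbp7. The largest of these shifts are as large as most of the treatment differences below, though not the largest ones of Igfbp2 and Igfbp5. The array of stretch replicate 7 was the dimmest (75th percentile of signal 853, against 1826 to 4807 on the other arrays) and 71.8% of its spots were well above background. Stretch replicates 4 and 5 differed from each other by less than the noise between repeated spots of a probe and were counted as 1 sample, which leaves 21. Every main probe of the 10 genes was well above background on 22 of 22 arrays; the second Igfbp5 probe was so on 21.

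**Figure D1:**
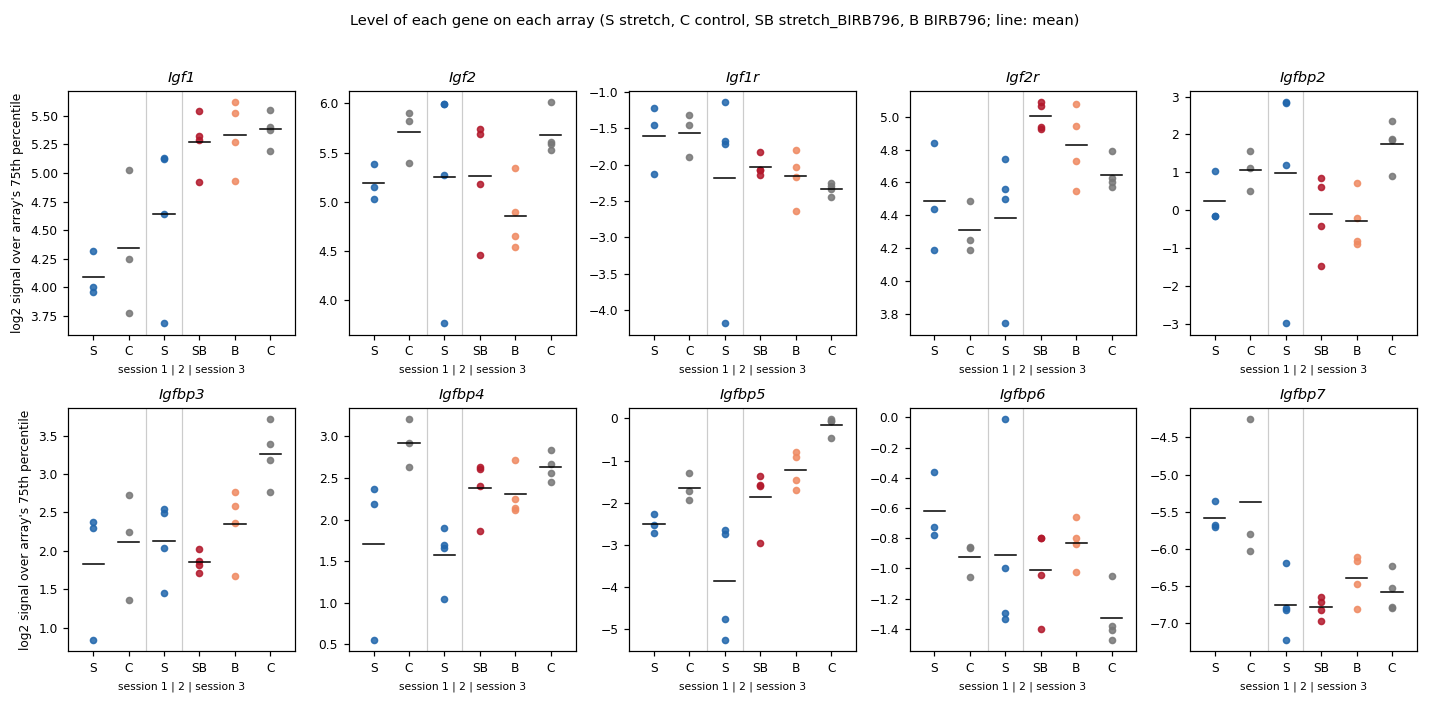
Level of each of the 10 genes (y axis, log2 signal over the array's 75th percentile, its own scale per gene) on every array, by scan session and group; points are arrays and lines are group means. In session 3 the stretch_BIRB796 points of Igfbp3 lie between 1.71 and 2.03, below all control points, and the control points of Igfbp5 lie between -1.93 and -1.30 in session 1 and between -0.46 and -0.02 in session 3.

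With all 4 groups fitted together and scan session as a term (limma, Benjamini-Hochberg adjustment over 26881 probes), 0 of the 10 genes passed an adjusted p of 0.05 in any of the 6 comparisons. That fit called 0 probes for stretch against control (background 0%), 0 for BIRB796 against control, 0 for stretch_BIRB796 against BIRB796 and 21 for stretch_BIRB796 against control (0.0781%, of which 0.0223% were higher and 0.0558% lower). It called 0 probes for stretch_BIRB796 against stretch and 0 for the difference between the stretch responses with and without the compound. At an unadjusted p under 0.05 it counted 789, 1690, 510, 2540, 608 and 381 probes in these 6 comparisons. Of the 10 genes, those under an unadjusted p of 0.05 were Igfbp4 in stretch against control, Igf2, Igfbp2, Igfbp3, Igfbp5 and Igfbp6 in BIRB796 against control, Igfbp2, Igfbp3 and Igfbp5 in stretch_BIRB796 against control, and Igfbp4 in the difference between the stretch responses. The fit pools the spread of all sessions, session 2 with its dim array included, and has no slide term. It gives the errors and p of stretch against control below, unless another fit is named. Within session 3 alone, which gives the same estimates, with a smaller error for the main probes of the 10 genes, 2 genes passed: Igfbp3 and Igfbp5 fell in stretch_BIRB796 against control, where 7.41% of probes were called (3.27% higher and 4.14% lower).

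Igf1, the form made by many tissues in response to growth hormone, had 4.92, 5.29, 5.32 and 5.54 in stretch_BIRB796 replicates 1 to 4, 4.93, 5.27, 5.52 and 5.62 in BIRB796 replicates 1 to 4, and 5.55, 5.38, 5.40 and 5.20 in control replicates 4 to 7. The 3 groups overlapped, with replicate 1 the lowest in each BIRB796 group. The difference within session 3 was -0.11 ± 0.17 (SE) for stretch_BIRB796 minus control, with a 95% interval of -0.48 to 0.26, and -0.05 ± 0.17 for BIRB796 minus control, with an interval of -0.42 to 0.32. In session 1, Igf1 had 4.00, 4.32 and 3.96 in stretch and 4.24, 3.77 and 5.03 in control, which overlapped too (difference -0.26 ± 0.32, limma adjusted p = 1.00). Its second probe gave -0.38 ± 0.32 there.

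Igf2, the fetal growth factor, was lower in BIRB796 than in control without overlap. It had 4.65, 4.54, 5.34 and 4.89 in BIRB796 replicates 1 to 4, against 6.01, 5.60, 5.53 and 5.59 in control replicates 4 to 7, a 1.77-fold lower level (difference -0.83 ± 0.28 within session 3) that did not pass (limma adjusted p = 0.138). On slide 6, the only slide with both groups, Igf2 was -1.36 in BIRB796 minus control. In stretch_BIRB796 it had 4.46, 5.74, 5.69 and 5.18, which overlapped both other groups (stretch_BIRB796 minus control -0.42 ± 0.28, adjusted p = 0.399). Replicate 1 of stretch_BIRB796 was the lowest of the 12 arrays. In session 1 Igf2 had 5.15, 5.03 and 5.38 in stretch, against 5.39, 5.91 and 5.82 in control. These groups did not overlap, but stretch replicate 3 and control replicate 1 were only just apart, and the difference of -0.52 ± 0.42 had an adjusted p of 1.00.

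Neither receptor passed the test within session 3. Igf1r, the signalling receptor, had -1.83, -2.08, -2.08 and -2.14 in stretch_BIRB796, against -2.33, -2.25, -2.44 and -2.30 in control replicates 4 to 7. All 4 stretch_BIRB796 arrays were above all 4 controls, by a mean of 0.30 ± 0.15 within session 3 (limma adjusted p = 0.257). BIRB796 arrays ran from -2.63 to -1.80 and overlapped control. In session 1 Igf1r ran from -2.13 to -1.21 in stretch and from -1.89 to -1.31 in control. Igf2r, the receptor that clears Igf2, had 5.07, 4.92, 4.94 and 5.09 in stretch_BIRB796, against 4.63, 4.60, 4.57 and 4.79 in control, again without overlap. The rise of 0.36 ± 0.11, or 1.28-fold, missed the threshold (adjusted p = 0.0781), and the array median in place of the 75th percentile gave 0.42 with an adjusted p of 0.0372. BIRB796 arrays ran from 4.55 to 5.07 and overlapped both groups. In session 1 Igf2r ran from 4.19 to 4.84 in stretch and from 4.19 to 4.49 in control.

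Of the 6 binding protein genes, Igfbp3 fell in stretch_BIRB796. Igfbp3 is the main carrier of the ligands in blood. It had 1.71, 1.82, 2.03 and 1.86 in stretch_BIRB796 replicates 1 to 4, 2.36, 2.58, 1.68 and 2.77 in BIRB796 replicates 1 to 4, and 3.18, 3.40, 3.71 and 2.77 in control replicates 4 to 7. All stretch_BIRB796 arrays lay below all controls, while the highest BIRB796 array and the lowest control were both at 2.77. The mean was 1.85 ± 0.13 in stretch_BIRB796 and 3.26 ± 0.40 in control (SD, n = 4 each), a difference of -1.41 ± 0.24 (2.66-fold lower, limma adjusted p = 0.0151 within session 3 and 0.145 in the fit over all sessions). BIRB796 averaged 2.35 ± 0.48, -0.92 ± 0.24 from control (adjusted p = 0.0782).

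Igfbp5, which is bound in the extracellular matrix and is made by smooth muscle and fibroblast cells, also fell in stretch_BIRB796. It had -2.96, -1.37, -1.60 and -1.58 in stretch_BIRB796, -1.47, -0.91, -1.71 and -0.79 in BIRB796, and -0.05, -0.02, -0.07 and -0.46 in control replicates 4 to 7. Both BIRB796 groups lay below every control of the session, and replicate 1 of stretch_BIRB796 was the lowest. The mean was -1.88 ± 0.73 in stretch_BIRB796 and -0.15 ± 0.21 in control (SD, n = 4 each), a difference of -1.73 ± 0.33 (3.31-fold lower, limma adjusted p = 0.0193 within session 3 and 0.144 over all sessions). The second probe of Igfbp5 gave -1.35 ± 0.34 with an adjusted p of 0.0396. BIRB796 averaged -1.22 ± 0.44 and differed from control by -1.07 ± 0.33 (adjusted p = 0.116).

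Both calls rest on the session 3 controls. Without control replicate 4, 5 or 6 the adjusted p of Igfbp3 was 0.0512, 0.0601 or 0.054 and that of Igfbp5 0.0642, 0.0694 or 0.0642, with differences between -1.44 and -1.26 for Igfbp3 and between -1.70 and -1.68 for Igfbp5. Control replicates 5 and 6 share a slide and were the most alike pair within a group after stretch replicates 4 and 5. Their spread was 1.13 times the noise between repeated spots. With these controls averaged to 1 sample, the limma adjusted p was 0.0555 for Igfbp3 and 0.0653 for Igfbp5. Whether they are separate samples was not tested. With slide as a fixed block, which leaves few comparisons within slides, the differences of Igfbp3 and Igfbp5 were -1.11 (adjusted p = 0.14) and -1.76 (adjusted p = 0.118). On slide 6, which held 1 array each of stretch_BIRB796, BIRB796 and control, Igfbp3 was -1.48 and Igfbp5 -2.91 in stretch_BIRB796 minus control. On slide 8, Igfbp3 had 1.82 and 2.03 in stretch_BIRB796 replicates 2 and 3, against 2.77 in control replicate 7, and Igfbp5 had -1.37 and -1.60, against -0.46.

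Igfbp2, a binding protein abundant in fetal tissue, had the widest spread of the 10 genes. It had -1.48, 0.85, 0.61 and -0.41 in stretch_BIRB796, -0.80, -0.90, 0.72 and -0.20 in BIRB796, and 2.35, 1.87, 1.86 and 0.91 in control replicates 4 to 7. All 8 arrays with the compound lay below the 4 controls, although stretch_BIRB796 replicate 2 and control replicate 7 were close. The slides differed. On slide 6 the difference from control was -3.83 in stretch_BIRB796 and -3.15 in BIRB796. On slide 8, stretch_BIRB796 replicates 2 and 3 had 0.85 and 0.61, against 0.91 in control replicate 7. The mean was -0.11 ± 1.07 in stretch_BIRB796, -0.29 ± 0.74 in BIRB796 and 1.75 ± 0.60 in control (SD, n = 4 each). The differences from control were -1.85 ± 0.54 (3.62-fold lower, limma adjusted p = 0.0627) and -2.04 ± 0.54 (4.12-fold lower, adjusted p = 0.0775) within session 3, and neither passed. Without control replicate 7, the dimmest control of the session, both did, at -2.13 (adjusted p = 0.0316) and -2.32 (adjusted p = 0.0327). The second probe of Igfbp2, which lies further 3′, gave -1.83 ± 0.54 and -2.08 ± 0.54, and the probes had a Pearson r of 0.997 over the 12 arrays.

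Igfbp6, which binds Igf2 by preference, moved the other way. It had -1.02, -0.66, -0.80 and -0.84 in BIRB796, against -1.48, -1.38, -1.41 and -1.05 in control replicates 4 to 7. The groups did not overlap, though BIRB796 replicate 1 and control replicate 7 were close, and the difference of 0.50 ± 0.15 (1.41-fold higher) had a limma adjusted p of 0.102. In stretch_BIRB796 Igfbp6 had -1.40, -0.80, -0.80 and -1.04, which overlapped control (0.32 ± 0.15, adjusted p = 0.215). Igfbp4, an inhibitor of ligand action that is cleaved by the pregnancy-associated plasma protein A, had levels of 1.86 to 2.64 in stretch_BIRB796, 2.12 to 2.72 in BIRB796 and 2.45 to 2.83 in control. Igfbp7, which binds the ligands only weakly, had levels of -6.97 to -6.65 in stretch_BIRB796, -6.82 to -6.11 in BIRB796 and -6.80 to -6.24 in control. Its signal reached down to 7.53 units on the scanner's scale, the lowest of the main probes.

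**Figure D2:**
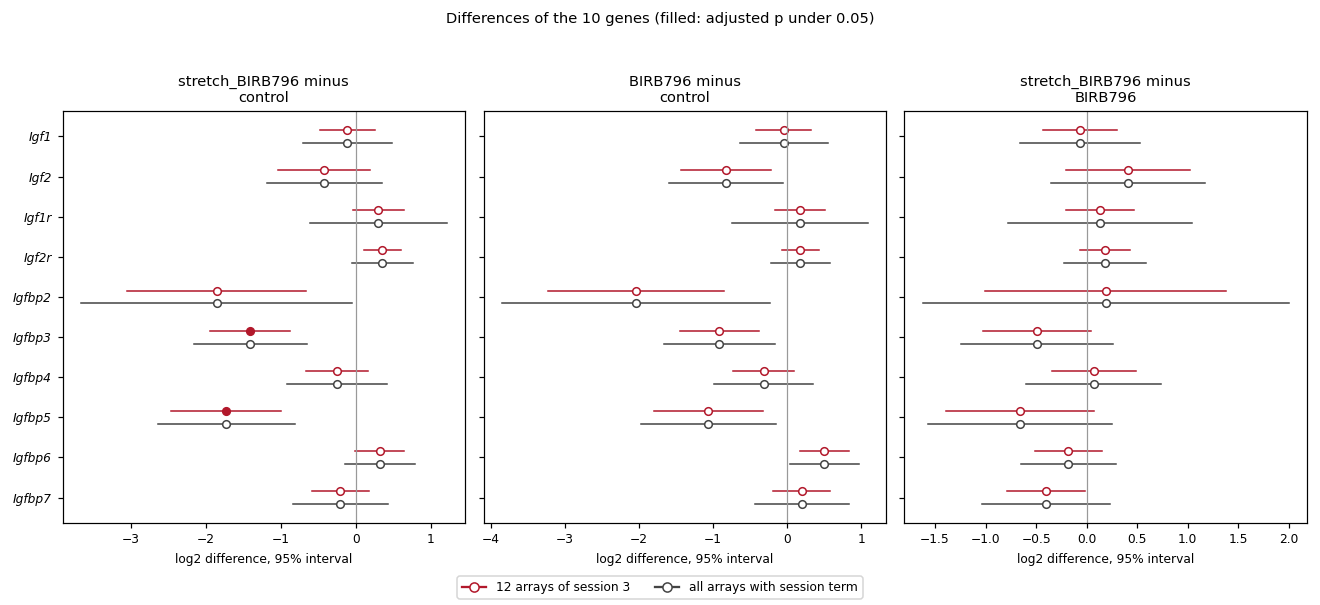
Log2 difference (x axis) with its 95% interval for each of the 10 genes in 3 comparisons, from the 12 arrays of session 3 (red) and from the fit over all arrays with a session term (grey); filled points have an adjusted p under 0.05. Igfbp3 at -1.41 and Igfbp5 at -1.73 in stretch_BIRB796 minus control are the filled points, and the intervals of the fit over all sessions are wider.

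Counts of non-overlapping genes are best read against all probes. In stretch_BIRB796 against control within session 3, the main probes of 5 of the 10 genes did not overlap (Igfbp2, Igfbp3 and Igfbp5 lower, Igf1r and Igf2r higher), where 16.7% of all probes did not. In BIRB796 against control it was 4 of 10 (Igf2, Igfbp2 and Igfbp5 lower, Igfbp6 higher), against 11.8% of probes. Those 2 groups shared only slide 6, so slide and BIRB796 are largely confounded there. In stretch_BIRB796 against BIRB796 it was 0 of 10, against 6.26% of probes. The median difference over the 10 genes was -0.23 in stretch_BIRB796 minus control, with 3 positive and 7 negative, beside 0.04 over all probes. It was -0.18 in BIRB796 minus control, with 4 positive and 6 negative, beside -0.02, and 0.00 in stretch_BIRB796 minus BIRB796, with 5 each way, beside 0.05. The first 2 comparisons share their 4 controls, so their likeness is no separate result.

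Adding stretch to BIRB796 moved none of the 10 genes past the threshold. Within session 3, where 0.0744% of probes were called (0.067% higher and 0.00744% lower), the 3 with the smallest adjusted p in limma were Igfbp7 (-0.40 ± 0.17, adjusted p = 0.573), Igfbp3 (-0.49 ± 0.24, adjusted p = 0.627) and Igfbp5 (-0.66 ± 0.33, adjusted p = 0.633). Their 95% intervals were -0.79 to -0.02, -1.03 to 0.04 and -1.39 to 0.08. Igfbp2 differed by 0.19 ± 0.54.

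Stretch without the compound was compared with control within session 1, where each of 3 slides carried 1 array of each group. The errors and adjusted p given here are from the fit over all sessions. They hold the pooled spread of all sessions, not that of session 1 alone, and do not use the slide pairs. Igfbp4 had 2.37, 2.19 and 0.55 in stretch replicates 1 to 3, against 2.92, 2.63 and 3.21 in control replicates 1 to 3. The groups did not overlap, and stretch replicate 3 was far below the other 2. The difference was -1.22 ± 0.37 (2.32-fold lower, limma adjusted p = 1.00). By slide it was -0.55, -0.44 and -2.66, with slide 3 far from the other 2, and leaving out single samples moved the fitted difference between -1.55 and -0.64. Igfbp5 had -2.72, -2.53 and -2.28 in stretch, against -1.73, -1.30 and -1.93 in control, with differences by slide of -0.99, -1.22 and -0.35 (mean difference -0.85 ± 0.50, adjusted p = 1.00). Its second probe was lower on each slide too (-0.60, -0.45 and -1.05).

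The other binding proteins varied by slide in session 1. Igfbp2 had -0.16, -0.16 and 1.03 in stretch, against 0.50, 1.57 and 1.11 in control, which overlap. Its difference by slide was -0.65, -1.73 and -0.08. Igfbp3 had 2.37, 2.29 and 0.83 in stretch, against 2.24, 1.36 and 2.73 in control, a difference of 0.13, 0.93 and -1.89 by slide, with both signs. Igfbp6 had -0.36, -0.73 and -0.78 in stretch, against -0.86, -1.06 and -0.87 in control, with differences by slide of 0.50, 0.33 and 0.09 (mean 0.31 ± 0.26, limma adjusted p = 1.00). Main probes of 4 of the 10 genes did not overlap in session 1 (Igf2, Igfbp4 and Igfbp5 lower, Igfbp6 higher), where 8.7% of all probes did not.

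**Figure D3:**
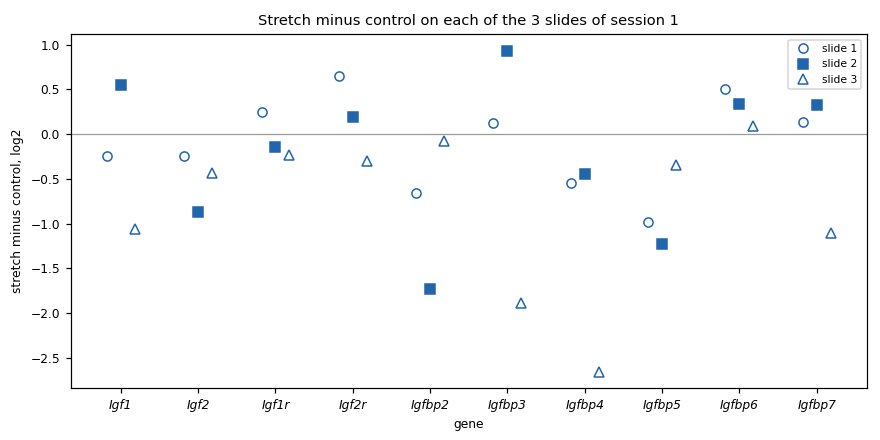
Stretch minus control (y axis, log2 difference) on each of the 3 slides of session 1 for the 10 genes; each point is 1 slide. Igfbp4, Igfbp5, Igf2 and Igfbp2 lie below 0 on all 3 slides and Igfbp6 above 0, while Igf1, Igf1r, Igf2r, Igfbp3 and Igfbp7 have points on both sides; Igfbp4 on slide 3 is at -2.66.

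The stretch arrays of session 2 have no control beside them and only their spread is given. Igfbp2 had 2.84, 2.83, 1.20 and -2.98 in replicates 4 to 7, and Igfbp5 had -2.66, -2.74, -4.77 and -5.27. Igfbp4 had 1.70, 1.66, 1.89 and 1.05. Replicate 7 was the lowest in 8 of the 10 genes and the highest in Igfbp6, at -0.01. Without a session term, where these arrays count in full, Igfbp4 (-1.13, adjusted p = 0.0404) and Igfbp5 (-2.58, adjusted p = 0.0333) were called in stretch against control, but that fit does not separate stretch from session. For Igfbp5 the control mean of session 1 minus that of session 3 was -1.50, and the stretch mean of session 2 minus that of session 1 was -1.74. On its second probe these shifts were -1.74 and -0.48. For Igfbp4 these shifts were 0.29 and -0.16, and its difference was close to the -1.22 of the fit with the session term.

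Whether BIRB796 altered the response to stretch was tested as the difference of the differences, (stretch_BIRB796 minus BIRB796) minus (stretch minus control), which chains sessions 3 and 1. None of the 10 genes passed. Igfbp4 had the smallest p, at 1.29 ± 0.48 (limma adjusted p = 1.00): stretch_BIRB796 minus BIRB796 was 0.07 ± 0.32 and stretch minus control -1.22 ± 0.37. For Igfbp5 the value was 0.19 ± 0.66, and for Igf2 0.93 ± 0.56. Stretch_BIRB796 minus stretch, which also chains sessions, ran from -1.13 ± 0.55 for Igfbp3 to 0.96 ± 0.48 for Igfbp4, and none of the 10 passed.

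The genes that share the axis were taken from a list of 50, of which 45 had a probe that passed the filter on dim probes. In the fit over all sessions 0 of the 45 were called in any comparison. Plagl1, a transcription factor that is imprinted like Igf2, and H19, the noncoding RNA beside Igf2 that shares its imprinting control, had the smallest p in BIRB796 against control: Plagl1 had -1.07 ± 0.30 (limma adjusted p = 0.338) and H19 -0.69 ± 0.20 (adjusted p = 0.36). Within session 3, Plagl1 fell in BIRB796 (adjusted p = 0.0414) and in stretch_BIRB796 (-0.86 ± 0.22, adjusted p = 0.0415). It averaged -1.69 ± 0.48 in stretch_BIRB796, -1.90 ± 0.15 in BIRB796 and -0.83 ± 0.27 in control (SD, n = 4 each), and the highest stretch_BIRB796 array (-1.18) overlapped the lowest control (-1.23). H19 ran from 5.63 to 6.39 in BIRB796, against 6.60 to 6.82 in control.

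Htra1, the secreted protease that cuts Igfbp5, rose within session 3. It averaged 2.55 ± 0.19 in stretch_BIRB796, 2.55 ± 0.14 in BIRB796 and 1.96 ± 0.10 in control (SD, n = 4 each). The rise was 0.59 ± 0.11 (1.50-fold, limma adjusted p = 0.0167) in stretch_BIRB796 and 0.60 ± 0.11 (1.51-fold, adjusted p = 0.0326) in BIRB796. Arrays with the compound ran from 2.40 to 2.82, against 1.83 to 2.08 in control. Stc1, a secreted inhibitor of the pregnancy-associated plasma protein A, fell in stretch_BIRB796: it ran from -2.64 to -2.33 there, against -2.09 to -1.70 in control (-0.67 ± 0.11, 1.59-fold lower, adjusted p = 0.0142). In BIRB796 Stc1 ran from -2.25 to -1.88. Of the 45 genes, then, 1 rose and 2 fell in stretch_BIRB796 against control within session 3 and 1 rose and 1 fell in BIRB796, where 7.41% and 1.79% of probes were called (0.751% higher and 1.04% lower in BIRB796). As for Igfbp3 and Igfbp5, none of these calls held without control replicate 4, 5 or 6, and the calls of Plagl1 and of Htra1 in BIRB796 were lost without some of the treated arrays too. With slide as a fixed block none passed: the limma adjusted p was 0.0937 for Htra1, 0.237 for Plagl1 and 0.119 for Stc1 in stretch_BIRB796, and 0.31 for Htra1 and 0.513 for Plagl1 in BIRB796, where the difference of Plagl1 was -0.60 in place of -1.07. With slide as a random block Plagl1 (adjusted p = 0.0553 in stretch_BIRB796 and 0.116 in BIRB796) and Htra1 in BIRB796 (0.0524) did not pass. With control replicates 5 and 6 averaged none of the 5 calls passed.

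Bulk arrays cannot tell fewer cells of a type from less RNA per cell. Several marker lists moved with the binding proteins in session 3, and their part in the results was not tested. The epicardium and mesothelium list, all 8 markers of which were measured, had a mean level of -2.65, -1.49, -1.65 and -2.11 in stretch_BIRB796 replicates 1 to 4, -2.72, -2.54, -1.63 and -2.13 in BIRB796 replicates 1 to 4, and -0.63, -0.88, -0.82 and -1.42 in control replicates 4 to 7. On slide 6 the list was at -2.65 in stretch_BIRB796 and -2.72 in BIRB796, against -0.63 in control. On slide 8 it was at -1.49 and -1.65 in stretch_BIRB796 replicates 2 and 3, against -1.42 in control replicate 7. Arrays low in this list were low in Igfbp2: within BIRB796, replicate 3 was the highest in both and replicates 1 and 2 the 2 lowest. All 8 of its markers were lower in stretch_BIRB796 and in BIRB796 than in control by sign, and 2 and 1 of them passed within session 3. The endothelium list of 10 markers was at -3.83 to -3.45 in stretch_BIRB796, -3.47 to -2.88 in BIRB796 and -2.96 to -2.62 in control, and 6 of its markers fell in stretch_BIRB796. The macrophage list of 10 was at 1.49 to 1.68 in stretch_BIRB796, 1.66 to 2.07 in BIRB796 and 1.68 to 2.70 in control, and 5 of its markers fell in stretch_BIRB796. The smooth muscle and pericyte list of 8 was higher with the compound, at 1.64 to 2.56 in stretch_BIRB796 and 1.52 to 2.33 in BIRB796, against 0.62 to 1.26 in control, and 5 and 3 of its markers rose. The fibroblast list overlapped between groups, at 1.49 to 1.75 in stretch_BIRB796, 1.19 to 1.50 in BIRB796 and 0.88 to 1.67 in control, as did the cardiomyocyte list, at 5.07 to 5.23, 4.99 to 5.17 and 5.11 to 5.48 in stretch_BIRB796, BIRB796 and control, and 0 of the 10 markers of either were called. Over all probes 4.14% were called lower and 3.27% higher in stretch_BIRB796, and 1.04% lower and 0.751% higher in BIRB796. Like the genes above, the marker calls depend on the session 3 controls: with slide as a fixed block 0 markers of the epicardium, endothelium, macrophage and smooth muscle lists were called in either comparison, and without control replicate 4, 5 or 6, or with replicates 5 and 6 averaged, only 1 endothelium marker in stretch_BIRB796 was. With slide as a random block the 3 smooth muscle calls in BIRB796 were lost. Without control replicate 7 there were 2 epicardium, 7 endothelium, 8 macrophage and 6 smooth muscle calls in stretch_BIRB796, and 4, 1, 6 and 6 in BIRB796. All markers of the 6 lists were well above background on the 12 arrays of session 3.

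**Figure D4:**
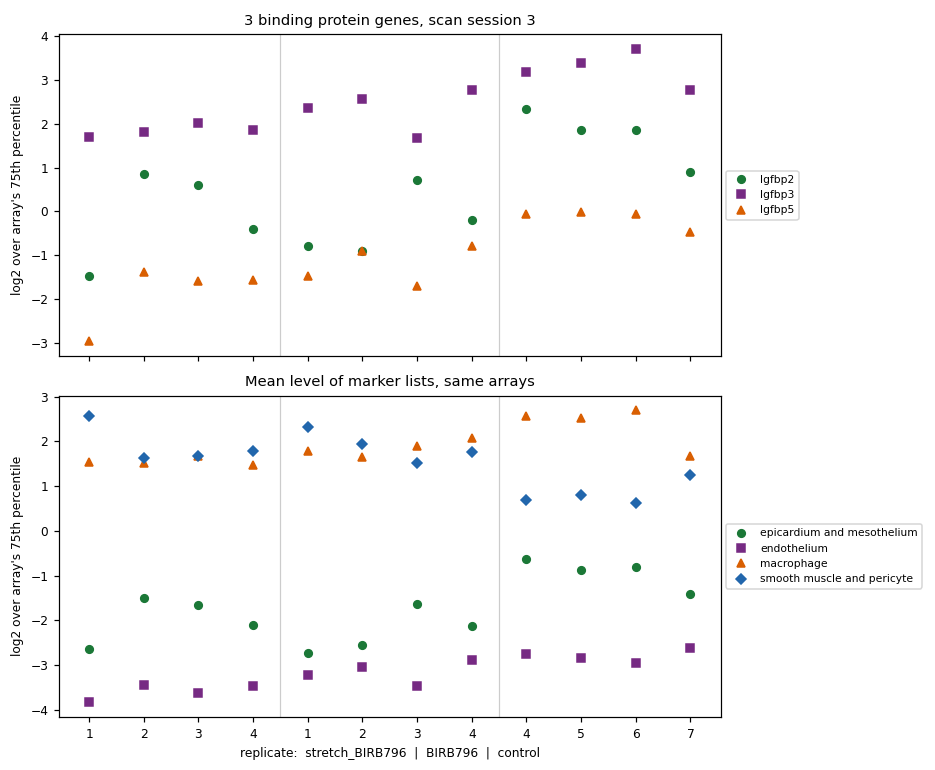
Levels on the 12 arrays of session 3 (x axis, replicate within group): the upper panel shows Igfbp2, Igfbp3 and Igfbp5 and the lower panel the mean level of 4 marker lists (y axes, log2 over the array's 75th percentile). Igfbp2 and the epicardium and mesothelium list share their lowest array in stretch_BIRB796 (replicate 1), and all compound-treated arrays lie below the controls in both.

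In session 1, the epicardium and mesothelium list was at -1.70 to -0.85 in stretch and -1.31 to -0.64 in control, and the macrophage list at 0.35 to 1.17 in stretch and 0.85 to 2.06 in control. The endothelium list, at -2.81 to -2.53 in stretch and -2.36 to -2.16 in control, did not overlap, where 8.7% of single probes did not. The smooth muscle and pericyte list was at 0.47 to 2.13 in stretch and 0.61 to 1.61 in control. The fibroblast list was at 0.58 to 1.14 and 0.80 to 1.39, and the cardiomyocyte list at 4.76 to 5.15 and 4.56 to 5.26, in the same order. These lists overlapped between the groups.

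The spread of the 10 genes over the 12 arrays of session 3 was widest for 4 of them. The SD was 1.22 for Igfbp2, more than that of 98.3% of the 26881 probes, 0.87 for Igfbp5 (94.5%), 0.69 for Igfbp3 (89.2%) and 0.52 for Igf2 (80.2%). The other 6 had an SD of 0.21 to 0.29, beside a median of 0.25 over all probes. The genes with a symbol whose levels were most like those of the first 3, by Pearson r over these 12 arrays, were Entpd3 (0.992), Scg5 (0.992) and Mal2 (0.991) for Igfbp2, Lrrc4 (0.989), Cntnap1 (0.975) and Bnc2 (0.972) for Igfbp5, and Sectm1a (0.987), Arl5c (0.975) and Dapp1 (0.974) for Igfbp3. The arrays fall in 3 groups, which these r values include, and the genes share each array's scaling. No gene was on more than 1 of these lists of 3.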

How the data were processed

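Cy3-labelled total RNA was read on single-colour Agilent rat arrays, following the protocols in the labels. The intensity of each spot in the deposited scanner output is linear and was background-subtracted array by array by Agilent Feature Extraction (10.7.1.1 in session 1, 10.7.3.1 in session 2 and 11.0.1.1 in session 3), per the file headers. A table of log2 values for 27873 probes, deposited by the authors, served as an alternative. All 22 of its columns matched their own array most closely (r 0.9997 to 0.9999), while its baseline is unknown (column medians -0.11 to 0.40).

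Control spots and outlier-flagged spots were left out. Log2 processed signals were averaged over spots, the array's 75th percentile was subtracted, and 26881 of 30367 probes, those well above background on a minimum of 4 arrays, entered the fits. A gene's main probe is that with the highest mean. Probe names were updated through a RefSeq table of assembly GRCr8 (17998 by accession, 2359 by symbol, 623 by synonym, 9387 kept as in the files). Fits used limma 3.58.1 in R 4.3.3, two-sided, with Benjamini-Hochberg adjustment over all probes kept, on the 4 groups with scan session as a term (21 samples, 15 residual degrees of freedom). The fits within session 3 were an alternative, and their own alternatives were added after seeing the data. The code was tested on simulated data. Normexp used the median spot signal, since not all files hold the mean signal. The number of arrays per group limits the precision. The 10 genes, the gene lists and the tests were chosen with earlier results of these data known. All 10 genes are named; of the 50 other genes of the axis, those called are named and otherwise up to 3 with the smallest p, and probes named by an identifier alone were passed over for the genes most like a member. Equal replicate numbers in different groups were not treated as pairs in the main fit. Over 27 pairs of equal number the correlation of deviations ran from -0.28 to 0.61 and was over 0.1 in 12. In the pairs of replicate 1 it ran from 0.21 to 0.61, and whether equal numbers share a source is not settled.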

Additional observations from a re-analysis of the deposited data

Results flagged for a closer look

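Among the main probes of the 10 genes, 50 groups of 4 to 7 samples were checked for a sample far from the others, and 5 had one. Chance gives about 1 in 20 for separate groups of like samples. That rate is only a rough guide here. The session 3 controls were checked alone and again among all controls, and the control and stretch groups each span 2 sessions. Igf1r was lowest in stretch replicate 7, at -4.19, with the other stretch samples between -2.13 and -1.14. Igfbp5 was lowest in stretch_BIRB796 replicate 1, at -2.96, with the others between -1.60 and -1.37, and lowest among the session 3 controls in control replicate 7, at -0.46, with the others between -0.07 and -0.02. Igf2 was highest among the session 3 controls in control replicate 4, at 6.01, with the others between 5.53 and 5.60. Igfbp7 was highest in control replicate 3, at -4.26, with the other controls, which span 2 sessions, between -6.80 and -5.81. None of the 10 genes differed between the stretch responses with and without BIRB796 after adjustment (limma).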

How the results depend on the processing

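Counts of probes and of the 10 genes called moved as follows, with the counts of genes at 0 in every fit not named. In stretch against control (0 probes), leaving out the session term gave 327 probes and 2 genes, the array set in place of session 2224 probes and 2 genes, and slide as a random or fixed block 1 probe each. In BIRB796 against control (0 probes), slide as a fixed block gave 2, the replicate block without session 367, session 3 alone 481 and leaving out session 2 123. In stretch_BIRB796 against control (21 probes), no session term gave 1, the array set 2, slide as a random block 59, slide as a fixed block 2, the replicate block 1500 without and 0 with session, session 3 alone 1991 and 2 genes, leaving out session 2 682 and 2 genes, the array median 38, quantile normalization 5, normexp 3, and probes above background on all arrays 9. In stretch_BIRB796 against BIRB796 session 3 alone gave 20. In stretch_BIRB796 against stretch no session term gave 157, the array set 291 and slide as a fixed block 1.

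Leaving out each replicate in turn gave 0 to 25 probes for BIRB796 against control, 0 to 207 for stretch_BIRB796 against control, 0 to 2 against BIRB796, 0 to 1 against stretch, 0 to 1 for the difference of stretch responses, 0 for stretch against control, and 0 of the 10 genes throughout. Within session 3 it gave 0 to 2590 probes and 0 to 3 genes for BIRB796 against control, 110 to 4382 and 0 to 4 for stretch_BIRB796 against control, and 0 to 30 and 0 against BIRB796. The 4382 and 2590 came without control replicate 7, where Igfbp2 (adjusted p = 0.0327), Igfbp3 (0.0215) and Igfbp6 (0.0354) passed in BIRB796 against control and Igfbp2 (0.0316) and Igf2r (0.0458) in stretch_BIRB796 against control (limma). Without stretch_BIRB796 replicate 1, Igfbp2 (0.0361), Igfbp5 (0.0253) and Igfbp6 (0.048) passed in BIRB796 against control, and without BIRB796 replicate 3, Igf2r (0.045) in stretch_BIRB796 against control. Within session 3, BIRB796 against control (481 probes) gave 77 with slide as a random block, 2 with slide fixed and 0 with control replicates 5 and 6 averaged. Stretch_BIRB796 against control (1991 probes, 2 genes) gave 2 probes and 0 genes with slide fixed, and 112 and 0 with those controls averaged. Stretch_BIRB796 against BIRB796 (20 probes) gave 2 with slide fixed, 8 with the array median, 8 with the deposited table and 10 with those controls averaged. The cause was not tested.

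The replicate block changed no call of the 10 genes. Stretch_BIRB796 against stretch has no estimate under the replicate block with session. None of the 10 genes reversed a call, that is, changed sign with a call in either fit, under the alternatives run. The main fit called none of the 10, so this says little of how steady the direction was. Over the 10 genes and some others of the axis, 166 of 3860 values changed sign without a call in either fit. Within session 3 it was 27 of 918. Igfbp7 was the dimmest main probe, at 7.53 to 252 units.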
